A study of Mus musculus with 2 samples.

Results

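Genes with exactly 2 annotated promoters were described in mouse embryonic stem (ES) cells and in their retinoic acid-treated derivatives, with the 2 promoters ordered along the gene's strand. A promoter stands for the group of transcripts that begin in the same first exon, and its level is the sum over those transcripts in RPKM, reads scaled to transcript length and to the read total of the lane. The promoter table holds 55830 promoters of 34126 genes, and 4874 genes have exactly 2. Of these, 3796 have both promoters on the same chromosome and strand with first-exon starts at least 1000 bp apart, and in 1401 of them the promoters also sum to 5 RPKM or more in each library. A further limit left out 35 genes in which the share of a promoter in that sum differed by 30 percentage points or more between the libraries. The remaining 1366 genes, with 2732 promoters, are the subject here. The genes were thus chosen by the levels and by the difference in share between the libraries, so both are given as descriptions. The order of the promoters on the strand and the distance classes did not enter the choice. First-exon starts are the lower deposited coordinates, so on the minus strand they are the 3′ edges of the exons. Distances are taken between these listed starts. With the distance taken between transcription starts, 1359 genes met the limits and the upstream promoter was larger in 81.3%.

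Many mammalian genes can begin transcription at more than 1 place. An upstream promoter opens the longest form of a gene, whereas a promoter inside the gene skips the first exon or exons and can change the start of the protein or only the leader of the messenger RNA. Most broadly used mammalian promoters lie in CpG islands, stretches that keep the CpG dinucleotide that is rare in the rest of the genome, while a smaller class has few CpGs and often a TATA box.

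The cells were E14, an ES cell line of the 129P2/OlaHsd strain at passage 29. The undifferentiated group was cultured with leukaemia inhibitory factor and 15% serum on embryonic fibroblast feeders, which were removed by adsorption to an estimated remainder under 0.25%. The differentiated group was a mixed population after 4.5 days in 0.1 µM all-trans retinoic acid and 10% serum without feeders. Dead cells were put at 2% before and 8% after differentiation. Each group is 1 library of poly(A)-selected RNA, made from 5 µg of total RNA with fragments of about 250 bp and read on 2 lanes with single 36 bp reads. The values imply 32020000 to 37800000 reads per lane. The lanes are technical repeats of a library, so their gap shows sequencing and read assignment but not the difference between cultures, and no test between the conditions is possible.

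All 4 ES cell markers examined, Pou5f1, Nanog, Zfp42 and Esrrb, stood lower by 2-fold or more after differentiation, and all 4 markers of extraembryonic endoderm, Gata4, Gata6, Sox17 and Foxa2, stood higher by as much. Cyp26a1 and Rarb, both direct retinoic acid targets, were higher as well. Of 4 fibroblast markers, Col1a1 and Col3a1 were higher and Thy1 and S100a4 were not. The neuronal markers Stmn2 and Tubb3 were both lower by 2-fold or more, with a sum of 282 to 288 RPKM in undifferentiated and 27.0 to 28.9 RPKM in differentiated lanes. In bulk RNA, fewer cells of a type and less RNA per cell cannot be told apart.

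The DNA at a few promoter pairs is shown first, because the higher CpG content lay at the promoter with the larger share in more genes than at the upstream promoter. In 50 of the 1366 genes both promoters could be matched to a RefSeq start within 100 bp, and the 250 bases before each start were read from RefSeq on build GRCm38.p6. Psap and Pdcd4 are pairs with opposite use. Psap encodes prosaposin, the precursor of lysosomal activator proteins, and over 99% of its sum came from the upstream promoter in both libraries. Pdcd4 encodes an inhibitor of translation initiation, and over 99% of its sum came from the downstream promoter. Sequences run 5′ to 3′ along the gene, in lower case with each CpG in capitals. All 5 pairs printed were chosen after their values were seen.
Psap upstream, chr10:60277378-60277627, plus strand: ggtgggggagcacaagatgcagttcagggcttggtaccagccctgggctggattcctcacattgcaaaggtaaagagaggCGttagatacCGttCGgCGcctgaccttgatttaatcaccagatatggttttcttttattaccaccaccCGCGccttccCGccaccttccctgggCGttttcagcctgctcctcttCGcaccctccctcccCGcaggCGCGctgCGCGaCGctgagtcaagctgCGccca
Psap downstream, chr10:60284211-60284460, plus strand: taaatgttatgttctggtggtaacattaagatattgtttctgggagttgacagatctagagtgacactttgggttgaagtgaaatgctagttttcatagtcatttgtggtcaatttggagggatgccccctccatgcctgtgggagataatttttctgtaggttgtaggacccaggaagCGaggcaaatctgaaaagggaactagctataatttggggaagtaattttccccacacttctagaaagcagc
Pdcd4 upstream, chr19:53891981-53892230, plus strand: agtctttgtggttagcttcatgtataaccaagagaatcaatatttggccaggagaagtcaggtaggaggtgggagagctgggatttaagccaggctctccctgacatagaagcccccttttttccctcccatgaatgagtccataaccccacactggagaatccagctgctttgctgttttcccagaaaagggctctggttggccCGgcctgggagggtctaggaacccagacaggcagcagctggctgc
Pdcd4 downstream, chr19:53903101-53903350, plus strand: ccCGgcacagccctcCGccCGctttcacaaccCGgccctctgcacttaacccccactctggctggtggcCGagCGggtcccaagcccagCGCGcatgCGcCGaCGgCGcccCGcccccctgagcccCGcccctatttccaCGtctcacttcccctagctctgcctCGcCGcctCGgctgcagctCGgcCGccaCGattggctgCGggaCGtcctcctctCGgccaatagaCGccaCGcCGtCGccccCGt

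The capitals separate the used from the little-used promoter in both genes, and they do so in opposite order. The upstream promoter of Psap holds 16 CpGs and its downstream promoter holds 1. The observed count over the count expected from the C and G content, the CpG ratio, is 0.75 upstream and 0.10 downstream. In Pdcd4 the upstream promoter holds 1 CpG (CpG ratio 0.058) and the downstream promoter holds 29 (CpG ratio 0.99).

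The upstream Psap promoter stood at 28.6 and 28.9 RPKM in the 2 undifferentiated lanes and at 79.7 and 81.6 RPKM in the 2 differentiated lanes, while the downstream promoter did not reach 1 RPKM in any lane. The downstream Pdcd4 promoter stood at 16.2 and 17.8 RPKM in undifferentiated and at 61.2 and 60.1 RPKM in differentiated lanes, and its upstream promoter did not exceed 0.352 RPKM. At both promoters of both genes the differentiated lanes lay above the undifferentiated lanes, with the difference in RPKM almost wholly at the promoter in use.

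The next pairs show 2 genes in which both promoters carried RNA after differentiation, and 1 gene in which the CpG content of the used promoter was as low as that of the other. Cbx5 encodes heterochromatin protein HP1α. Cdkn2a makes Arf from its upstream and Ink4a from its downstream promoter, and both proteins restrain the cell cycle. Spp1 encodes osteopontin, a secreted matrix phosphoprotein.
Cbx5 upstream, chr15:103239853-103240102, minus strand: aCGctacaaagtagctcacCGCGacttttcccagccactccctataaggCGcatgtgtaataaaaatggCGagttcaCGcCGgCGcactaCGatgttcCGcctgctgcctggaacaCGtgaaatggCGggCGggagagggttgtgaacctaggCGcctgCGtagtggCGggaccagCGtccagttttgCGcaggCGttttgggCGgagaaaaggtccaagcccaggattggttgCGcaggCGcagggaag
Cbx5 downstream, chr15:103215353-103215602, minus strand: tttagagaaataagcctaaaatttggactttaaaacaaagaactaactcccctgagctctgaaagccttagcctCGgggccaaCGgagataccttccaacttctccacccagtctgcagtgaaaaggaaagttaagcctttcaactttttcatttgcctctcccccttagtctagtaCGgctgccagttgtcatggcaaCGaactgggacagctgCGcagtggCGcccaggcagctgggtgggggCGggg
Cdkn2a upstream, chr4:89294620-89294869, minus strand: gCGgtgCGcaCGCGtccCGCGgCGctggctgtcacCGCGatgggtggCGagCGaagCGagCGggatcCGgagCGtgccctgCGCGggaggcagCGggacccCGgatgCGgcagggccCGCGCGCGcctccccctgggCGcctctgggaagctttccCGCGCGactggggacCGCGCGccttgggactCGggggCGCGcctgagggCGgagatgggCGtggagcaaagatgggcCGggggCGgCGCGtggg
Cdkn2a downstream, chr4:89282193-89282442, minus strand: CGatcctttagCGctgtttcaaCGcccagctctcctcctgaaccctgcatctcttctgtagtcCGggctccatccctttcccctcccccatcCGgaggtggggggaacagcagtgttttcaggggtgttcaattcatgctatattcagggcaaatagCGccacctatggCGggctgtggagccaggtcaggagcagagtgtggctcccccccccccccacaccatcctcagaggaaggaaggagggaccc
Spp1 upstream, chr5:104434861-104435110, plus strand: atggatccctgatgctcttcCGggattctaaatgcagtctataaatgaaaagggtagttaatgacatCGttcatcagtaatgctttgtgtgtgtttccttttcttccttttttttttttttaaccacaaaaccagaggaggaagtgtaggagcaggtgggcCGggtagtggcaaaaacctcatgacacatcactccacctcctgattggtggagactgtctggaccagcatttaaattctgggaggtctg
Spp1 downstream, chr5:104435942-104436191, plus strand: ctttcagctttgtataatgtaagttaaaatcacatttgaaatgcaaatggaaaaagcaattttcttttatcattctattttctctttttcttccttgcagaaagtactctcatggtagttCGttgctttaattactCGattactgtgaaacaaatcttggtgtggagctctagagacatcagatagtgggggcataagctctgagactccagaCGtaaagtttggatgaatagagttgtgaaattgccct

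The Cbx5 pair holds 22 CpGs upstream (CpG ratio 1.02) and 7 downstream (0.43), and the Cdkn2a pair holds 40 upstream (1.08) and 7 downstream (0.32). Both Spp1 promoters hold 3 CpGs, with a CpG ratio of 0.26 upstream and 0.38 downstream. The letters TATAAA occur in the upstream Spp1 sequence and in none of the other 9.

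Over the 50 pairs, the promoter with the larger share had the higher CpG ratio in 43 genes, whereas the upstream promoter had it in 35. These pairs are not typical of all members, since 886 upstream but only 106 downstream starts could be matched. The larger share lay upstream in 32 of the 50, a smaller part than the 81.0% of all 1366 genes. The count was 30 of the 32 genes with the larger share upstream and 13 of the 18 genes with the larger share downstream. The median CpG ratio was 0.75 at the larger and 0.29 at the smaller promoter, beside 0.37 over all 32851 RefSeq starts. A ratio of at least 0.6 occurred at 70% of the larger and 18% of the smaller promoters, beside 34.0% of all starts. In 37 pairs the spacing of the starts on GRCm38.p6 was within 100 bp of the spacing of the listed starts on mm9. Of those 37 pairs, 33 had the higher CpG ratio at the larger promoter. Spacing does not show order. The matched starts of Pdlim5, counted with the larger share upstream, lie in reverse order on GRCm38.p6, so the assignment of that pair is uncertain. How base composition acts on read counts was not tested.

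**Figure D1:**
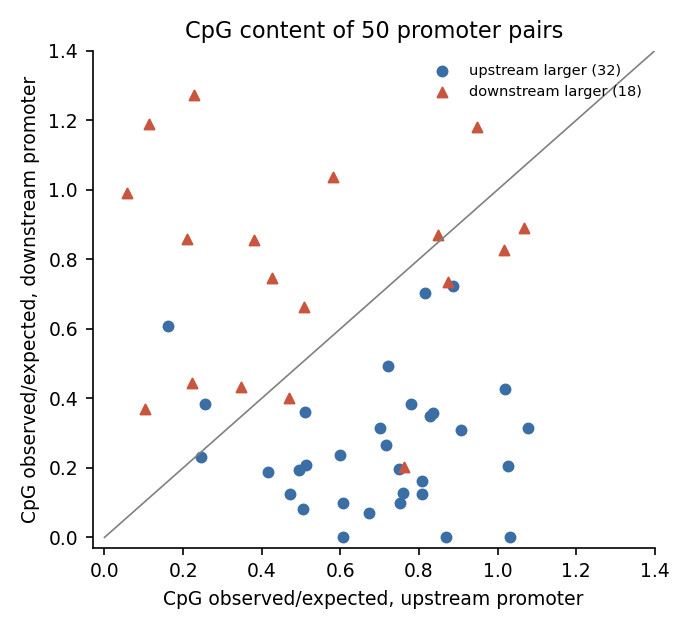
CpG observed/expected ratio of the 250 bases before the upstream start (horizontal) and the downstream start (vertical) in 50 genes, 1 point per gene. Circles are the 32 genes with the larger share upstream, triangles the 18 with the larger share downstream, and the line marks equal ratios. Circles lie below the line in 30 of 32 genes and triangles above it in 13 of 18. The matched starts of Pdlim5, a circle above the line, lie in reverse order on GRCm38.p6.

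Short motifs were searched on both strands of the same 250 bases. GGGCGG, the core of a GC box, occurred at 62% of the larger and 26% of the smaller promoters of the 50 pairs, beside 32.7% of all RefSeq starts. This motif contains a CpG and so overlaps the CpG count. CCAAT occurred at 36% of the larger and 26% of the smaller promoters, beside 33.8% of all starts. TATAAA occurred at 8% and 4%, beside 12.4% of all starts. An exact string for the core motif of the insulator factor CTCF was found at only 0.033% of all starts. It was found at none of the 886 upstream and 106 downstream starts that could be matched to RefSeq, which at so low a rate says nothing about CTCF sites. Over these matched starts, the CpG ratio was at least 0.6 at 81.4% of the 506 matched upstream starts that held 90% or more of the sum, and at 41.7% of the 24 that held under 10%. At downstream starts the shares were 73.0% of 37 and 4.35% of 23.

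The upstream promoter held the larger mean share in 1106 of the 1366 genes (81.0%), the downstream promoter in 255, and in 5 genes both were equal. With no minimum distance and no limit on the difference in share, the percentage was 77.8% of 1787 genes with 2 promoters. The median upstream share was 91.7% in undifferentiated and 91.1% in differentiated cells. By the mean share of both libraries, the upstream promoter held at least 90% in 714 genes (52.3%), and in 76 genes (5.56%) the downstream promoter did. Both promoters carried between 20% and 80% in 390 genes (28.6%). The median level was 12.9 RPKM upstream and 1.80 RPKM downstream in undifferentiated cells, and 15.7 and 2.04 RPKM in differentiated cells. The percentage with the larger share upstream was 81.5% of 680 genes on the plus strand and 80.5% of 686 on the minus strand.

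**Figure D2:**
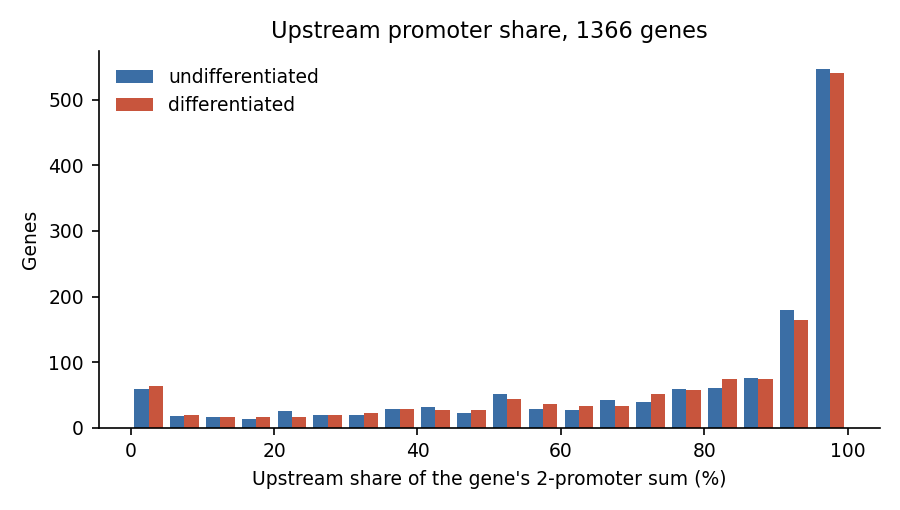
Number of genes (vertical) by the share of the upstream promoter in the gene's 2-promoter sum (horizontal, %), in undifferentiated and differentiated cells, for all 1366 genes. Most genes lie at the right edge in both libraries, and the medians are 91.7% and 91.1%.

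By distance between the promoters, the values up to 100 kb lay close together. Among 391 genes with starts 1 to 5 kb apart, the upstream promoter was larger in 79.3%, among 508 genes at 5 to 20 kb in 81.5%, and among 418 genes at 20 to 100 kb in 82.5%. The median upstream share in undifferentiated cells was 90.9%, 92.8% and 92.0% in these classes, and in differentiated cells 89.9%, 92.7% and 91.2%. With both promoters alike in RefSeq status, the percentages with the larger share upstream were 70.7%, 50% and 57.1% in these classes, and with both protein coding 73.5%, 74.1% and 59.7%. The 49 genes at 100 kb or more had lower values, with 75.5% upstream larger and median shares of 82.1% and 80.5%. In 6 genes the starts lay over 1 Mb apart, and the 3 longest distances (Rpl7-ps7, Gm7808 and Gm10260) belong to pseudogenes and predicted genes, for which near-identical copies may share reads. The value of the class of 100 kb or more depended on which genes were kept. It was 60.0% upstream larger in 15 genes when the sum had to reach 20 RPKM. It was 82.4% in the 34 genes with the downstream first exon inside the upstream transcripts, and 84.6% in the 39 with an informative symbol.

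Closer pairs were less one-sided. Among 380 genes that passed the same limits on sum and share difference but had starts under 1000 bp apart, the upstream promoter was larger in 66.8% and the median upstream share was 78.2% in undifferentiated and 78.7% in differentiated cells. In genes with more promoters the first one was again the most frequent leader. It was the largest in 69.4% of 1096 genes with 3 promoters, in 61.5% of 686 genes with 4 and in 49.6% of 423 genes with 5. With 3 promoters, the second was largest in 19.4% and the last in 11.1%. These genes met the limit on the sum, but no minimum distance and no limit on the share difference applied. An even split also gives each promoter a smaller part as promoters are added, so these percentages are not on the scale of the pairs.

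The kind of transcript behind each promoter moved with its position. A RefSeq accession was listed for 89.9% of the upstream and 10.0% of the downstream promoters. By matching Ensembl transcript names to GENCODE M21, 97.2% of 1285 upstream promoters had a protein-coding transcript, against 34.2% of 911 downstream promoters. Another 320 downstream promoters had only retained-intron transcripts and 220 only processed transcripts without a reading frame. The downstream first exon lay inside the span of the upstream transcripts in 1335 genes. The longest matched transcript of a promoter had a median of 3040 bases over these upstream and 765 bases over these downstream promoters. Upstream promoters also had more transcripts with a value, a mean of 2.55 against 1.18, which raises a maximum. In the 380 genes with 1 transcript with a value on each side, the medians where matched were 2996.5 and 814.5 bases.

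Where annotation did not favour a side, the upstream lead was smaller. In 1164 genes with RefSeq support only upstream, the upstream promoter was larger in 87.4%. In 73 genes with support only downstream it was larger in 19.2%, and the median upstream share was 8.50% in undifferentiated and 11.0% in differentiated cells. It was larger in 64.1% of 64 genes with support on both sides and in 52.3% of 65 with support on neither, 58.1% together. In 250 genes with a protein-coding transcript on both sides, the upstream promoter was larger in 70.0%, with median shares of 78.8% and 75.6%. In 577 genes with a coding transcript only upstream it was larger in 95.7%, and in 14 genes with one only downstream in 14.3%. Among the 49 genes at the longest distances, 34 had RefSeq support only upstream, and 31 of these 34 had the larger share upstream.

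**Figure D3:**
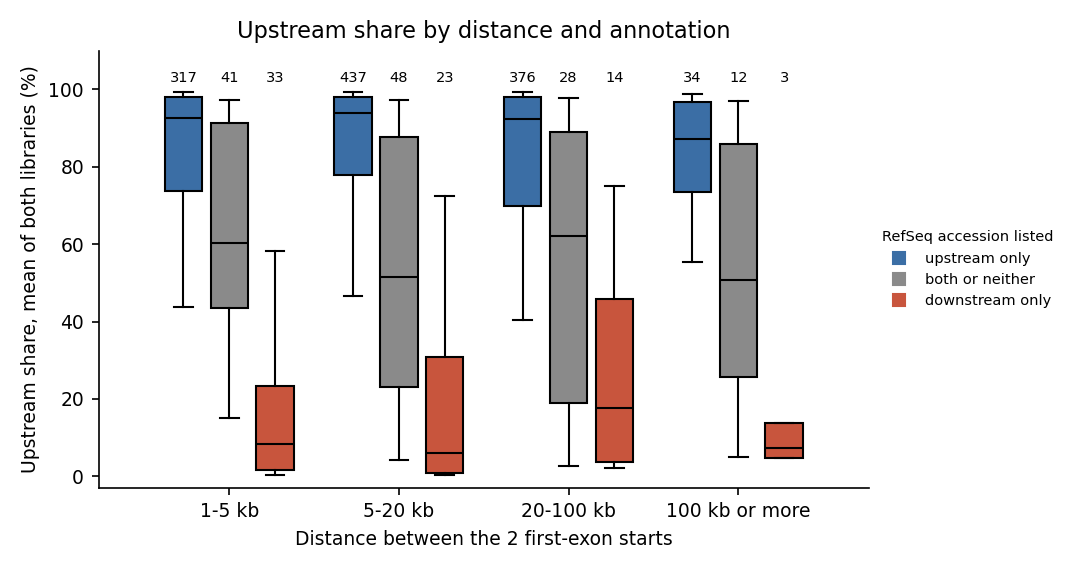
Upstream share (vertical, %, mean of both libraries) by distance class of the 2 first-exon starts (horizontal), split by which promoter lists a RefSeq accession. Boxes span the quartiles with the median as a line, whiskers reach the 10th and 90th percentiles, and the numbers of genes stand above. In every distance class the genes with RefSeq support only upstream sit high and those with support only downstream sit low.

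The ends of the transcripts also moved with the share. The last transcript ends of both promoters lay within 100 bp of each other in 469 genes, and there the upstream promoter was larger in 71.2%, with median shares of 78.6% and 77.1%. In 786 genes the upstream transcripts reached further, and the upstream promoter was larger in 91.1%. In 111 genes the downstream transcripts reached further, and it was larger in 50.5%. With exactly 1 transcript with a value on each side (380 genes), it was larger in 74.7%. Short 36 bp reads in an exon that both promoters' transcripts share must be divided between them by the counting program, which the sources used here do not name. The part of that division in the shares was not tested.

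The upstream share differed between the lanes of a library by a median of 1.61 points in undifferentiated and 1.72 points in differentiated cells, and between the libraries by a median of 1.86 points. The same promoter was larger in all 4 lanes in 1247 genes (91.3%), and in 983 genes (72.0%) the share differed by under 5 points between the libraries. These values are set largely by 790 genes with a mean share of at least 90% or at most 10%. In the 390 genes with a mean share of 20% to 80%, the median gap between lanes was 4.02 points in undifferentiated and 3.56 in differentiated cells, and the 90th percentile was 27.2 and 30.8 points. The same promoter was larger in all 4 lanes in 70.5% of these genes, and 47.9% differed by under 5 points between the libraries. A difference of at least 10 points occurred in 212 genes, and in 140 of them the lanes of the 2 libraries did not overlap. The upstream share was higher after differentiation in 55 of the 140 and lower in 85. Before the 30-point limit, 12.3% of 1401 genes met the same condition, and the limit on the difference in share used this contrast, so nothing is read from the count. In 47 genes the larger promoter was a different one in each library. Just inside the limit lay Mllt6, with an upstream share of 100% in undifferentiated and 70.1% in differentiated cells, and Mapk8ip1, with 33.6% and 4.51%. The Mllt6 value rests on 1 lane, since its downstream promoter read 0 and 4.90 RPKM in the 2 differentiated lanes. Just outside lay Cep72, at 69.9% and 100%, and Gm13139, at 12.6% and 43.8%.

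The response to retinoic acid was compared between the 2 promoters of each gene by a log2 ratio, differentiated over undifferentiated, with 1 RPKM added to each value, so that ratios of low levels come out too small. Of 25933 promoters of the whole table at the floor of 1 RPKM in 1 library or both, 20.2% stood 2-fold or more above the undifferentiated level and 9.32% stood 2-fold or more below it, with a median log2 ratio of 0.15. Among the 1318 upstream promoters at this level, 183 (13.9%) were higher and 77 (5.84%) lower, with a median log2 ratio of 0.09. Among 957 downstream promoters, 153 (16.0%) were higher and 86 (8.99%) lower, with a median of 0.12. With 5 RPKM added to each value the downstream percentages were 5.43% and 3.03%. Centred on the median of all promoters, the medians were -0.07 upstream and -0.04 downstream. Both kinds had smaller shares of 2-fold differences than the whole table. The limits differ, since members had to sum to 5 RPKM or more in each library, so nothing is read from this gap. Over the 10427 promoters of the table with at least 5 RPKM in both libraries, 10.7% were higher and 7.36% lower, with a median log2 ratio of -0.06. Beside that set, both kinds of member promoters were more often higher. Upstream promoters were less often lower, and downstream promoters more often. That set too has a limit unlike that of the members.

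Both promoters of a gene mostly had like ratios. In 909 genes both promoters reached 1 RPKM in either library, and in 730 of them (80.3%) the 2 log2 ratios lay within 1 of each other. Both were at least 2-fold higher in 72 genes and both at least 2-fold lower in 27, while they went in opposite directions beyond 2-fold in 6. The downstream ratio exceeded the upstream ratio 2-fold or more in 96 genes and lay below it by as much in 83. Without the floor the counts were 117 and 138, and with 5 RPKM added to each value they were 36 and 43, so the order of these counts turns with the setting. The median difference, downstream minus upstream, was 0.02 on the log2 scale, and -0.01 when promoters under the floor were kept. With the floor it was 0.05 at 1 to 5 kb and at 5 to 20 kb, -0.01 at 20 to 100 kb and -0.11 in 31 genes at 100 kb or more. Across the 909 genes, Pearson's r of the 2 ratios was 0.54 and Spearman's rho was 0.55. The points share libraries, genes and possibly reads, the limit on the share bounds their distance, and genes are not replicates. In 615 genes with lanes within 2-fold at both promoters, r was 0.66 and 540 genes (87.8%) lay within 2-fold.

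**Figure D4:**
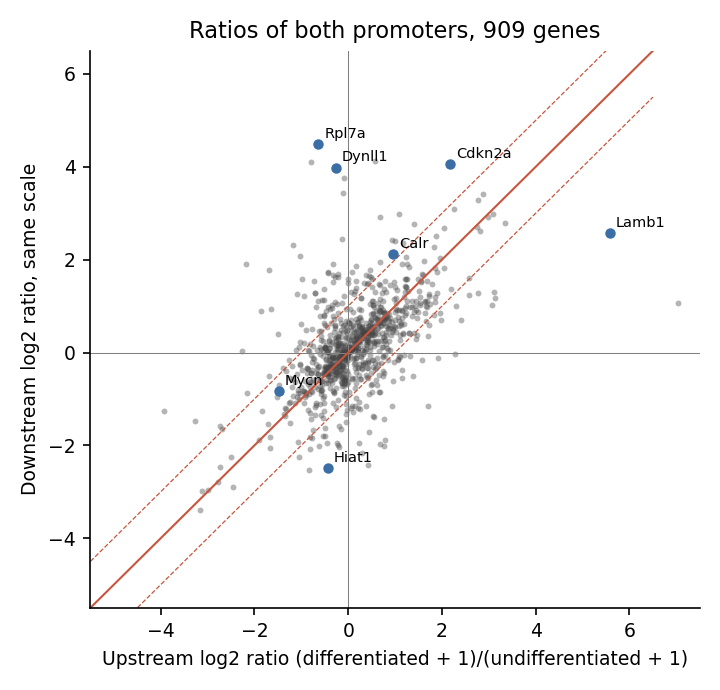
Log2 ratio, (differentiated + 1) over (undifferentiated + 1) in RPKM, of the upstream promoter (horizontal) and the downstream promoter (vertical) in 909 genes, 1 point per gene. The solid line marks equal ratios, the dashed lines a 2-fold distance from it, and 730 genes lie between the dashed lines. Dynll1 and Rpl7a lie far above the lines, and Lamb1 and Hiat1 below them.

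The genes with the largest sums and a second promoter of at least 10% show how the pairs stood. At 1 to 5 kb these included Cox7b (a subunit of cytochrome c oxidase) and Calr (calreticulin, a chaperone of the endoplasmic reticulum). The first exons of Cox7b start 3691 bp apart on chromosome X (mm9), at 103211038 and 103214729. Its upstream promoter stood at 544 and 541 RPKM in undifferentiated and 571 and 499 RPKM in differentiated lanes, and its downstream promoter, a retained-intron transcript, at 139 and 137 and then 82.7 and 89.3 RPKM. The upstream lanes overlapped between the libraries and the downstream lanes did not. The downstream Calr promoter, also a retained-intron transcript, read 119 and 17.4 RPKM in the 2 undifferentiated lanes, so its share there is uncertain.

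At 5 to 20 kb the largest sums belonged to Vim, Eif2b2 and Eif3c. Vim encodes vimentin, the intermediate filament of mesenchymal cells. Its upstream promoter stood at 102.9 and 121 RPKM in undifferentiated and 421 and 512 RPKM in differentiated lanes, and its downstream promoter at 24.3 and 24.5 and then 86.0 and 91.2 RPKM. The log2 ratios were 2.05 upstream and 1.82 downstream, and the upstream share was 82.2% and 84.0%, so both listed levels were higher by a like factor. The downstream promoters of Vim and Eif2b2 are retained-intron transcripts inside the span of the upstream transcripts. How many reads of the upstream forms are counted there was not tested. Eif2b2, which encodes a translation initiation factor, read 449 and 27.3 RPKM upstream in the 2 differentiated lanes, and its high mean there rests on 1 lane. Eif3c, of the same process, had near-equal promoters with shares of 52.5% and 48.8% upstream, and mouse Eif3c has a near-identical copy that may share its reads.

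At 20 to 100 kb the genes were Gnb1, Kpnb1 and Lmnb1. Gnb1 encodes a β subunit of heterotrimeric G proteins, with first exons 36052 bp apart on chromosome 4. Its upstream promoter stood at 67.9 and 69.2 RPKM in undifferentiated and 106 and 111 RPKM in differentiated lanes, and the downstream promoter stood at 111 and 113 and then 178 and 173 RPKM. The downstream promoter was larger in all 4 lanes, and the log2 ratios of 0.65 and 0.64 left the upstream share at 37.96% and 38.2%. That downstream promoter lists no RefSeq accession and has no M21 transcript type. Kpnb1, the nuclear import receptor importin β, had upstream shares of 69.6% and 70.9%, and its downstream promoter is a retained-intron transcript. The downstream promoter of Lmnb1 (lamin B1), also a retained-intron transcript, read 88.7 and 0 RPKM in the 2 undifferentiated lanes, so its share is uncertain.

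At 100 kb or more, Tmem131 and Birc6 had the larger share downstream, and Amd2 had it upstream. The downstream promoters of Tmem131 and Birc6 list no RefSeq accession and have no M21 transcript type. Birc6 encodes a large ubiquitin ligase that inhibits apoptosis. Upstream it stood at 6.40 and 6.39 RPKM in undifferentiated and 10.2 and 10.3 RPKM in differentiated lanes, and downstream at 21.1 and 18.2 and then 28.3 and 33.6 RPKM. Its log2 ratios were 0.61 and 0.63, and no lane of 1 library overlapped the other library at either promoter. Amd2, an S-adenosylmethionine decarboxylase gene, has listed promoters 4593058 bp apart, and similar copies may share its reads.

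The next genes had the largest differences between the promoters' ratios among genes with an informative symbol, at least 5 RPKM at both promoters in 1 library or both, and lanes within 2-fold wherever a value was 1 RPKM or more. Some of them had a downstream promoter that was higher after differentiation while the upstream promoter was not. Dynll1, the light chain of cytoplasmic dynein, has listed first-exon starts 1213 bp apart on chromosome 5 (mm9), at 115750521 and 115749308. In this minus-strand gene transcription begins at the other ends of these exons, 115751007 and 115749443. Its upstream promoter stood at 367 and 386 RPKM in undifferentiated and 317 and 310 RPKM in differentiated lanes, whereas its downstream promoter, a processed transcript, stood at 2.20 and 4.11 and then 60.7 and 68.5 RPKM. The log2 ratio was -0.26 upstream and 3.98 downstream, and the upstream share was 99.2% and 82.9%. Faf1, which encodes a ubiquitin-binding adaptor, had upstream values of 42.9 and 39.0 RPKM in undifferentiated and 38.8 and 37.6 RPKM in differentiated lanes. Its downstream promoter, 164197 bp away, stood at 0.058 and 0 and then 15.2 and 10.8 RPKM. The upstream lanes of Dynll1 did not overlap and stood slightly lower after differentiation, those of Faf1 did not overlap either but gave a log2 ratio of only -0.10, and the downstream lanes stood far apart in both genes.

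Rpl7a, Rbm14, Ddx19b and Cndp2 completed the 6 genes with the largest difference in this direction under these limits. The downstream promoter of Rpl7a, a ribosomal protein gene with many processed copies, read 0 and 0.755 RPKM and then 31.0 and 28.7 RPKM, beside upstream values of 727 and 744 and then 472 and 468 RPKM. Rbm14, a nuclear RNA-binding protein, combined an upstream log2 ratio of -1.65 with a downstream ratio of 0.93. Ddx19b, an RNA helicase of messenger RNA export, was lower only upstream, with log2 ratios of -2.26 and 0.03, and its downstream promoter held 80% or more of the sum in both libraries. Cndp2, a cytosolic dipeptidase, was higher at both promoters, with log2 ratios of 0.68 and 2.92.

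In the opposite direction, under the same limits, the downstream ratio lay lowest against the upstream ratio in a group that included Hiat1, Nup43, Hsd3b7, Casc4 and Pak2. Nup43, a component of the nuclear pore, had upstream values of 58.2 and 53.6 and then 27.8 and 24.9 RPKM, and downstream values of 6.71 and 4.82 and then 0.073 and 0.766 RPKM. Both Nup43 promoters were lower, with log2 ratios of -1.06 and -2.25. Hsd3b7, a dehydrogenase of bile acid synthesis, is the gene of this group whose larger promoter differed between the libraries, with an upstream share of 36.5% and 59.2%. The log2 ratios of Hiat1, upstream and downstream, were -0.44 and -2.50, those of Casc4 1.09 and -0.08, and those of Pak2, a p21-activated kinase, 0.60 and -0.34. In Hiat1, Nup43 and Pak2 the downstream promoter is a retained-intron transcript.

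Of 62 genes listed for known alternative promoters, 2 were members, Cdkn2a and Myl6, and both promoters of both genes stood higher after differentiation. On mm9 the listed first-exon starts of Cdkn2a lie 12348 bp apart on chromosome 4, at 88940237 and 88927889. The gene is on the minus strand, so transcription begins at the other ends of these exons, 88940556 and 88928095. The upstream Arf promoter stood at 13.4 and 14.0 RPKM in undifferentiated and 61.7 and 69.3 RPKM in differentiated lanes. The downstream Ink4a promoter stood at 1.93 and 0.720 and then 39.7 and 36.2 RPKM. Both were higher with no overlap of lanes, by log2 ratios of 2.17 and 4.06, and the upstream share was 91.2% and 63.3%. The 2 undifferentiated lanes of the downstream promoter lay more than 2-fold apart. Exons after the first are common to both forms.

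Myl6 encodes an essential myosin light chain, and its upstream promoter stood at 178 and 173 RPKM in undifferentiated and 385 and 391 RPKM in differentiated lanes, and its downstream promoter, 1207 bp away, at 88.0 and 93.4 and then 341 and 340 RPKM. The upstream share was 65.9% and 53.3%. Of the 11 members among 47 cytoskeleton and adhesion genes, the upstream promoter was larger in all 11. It was higher by 2-fold or more after differentiation in 7 and lower in 1. Of the 10 downstream promoters at 1 RPKM or more, 5 were higher and none was lower. These counts stand beside 20.2% higher and 9.32% lower in the whole table, and the genes of this list were chosen with earlier results of these data known.

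**Figure D5:**
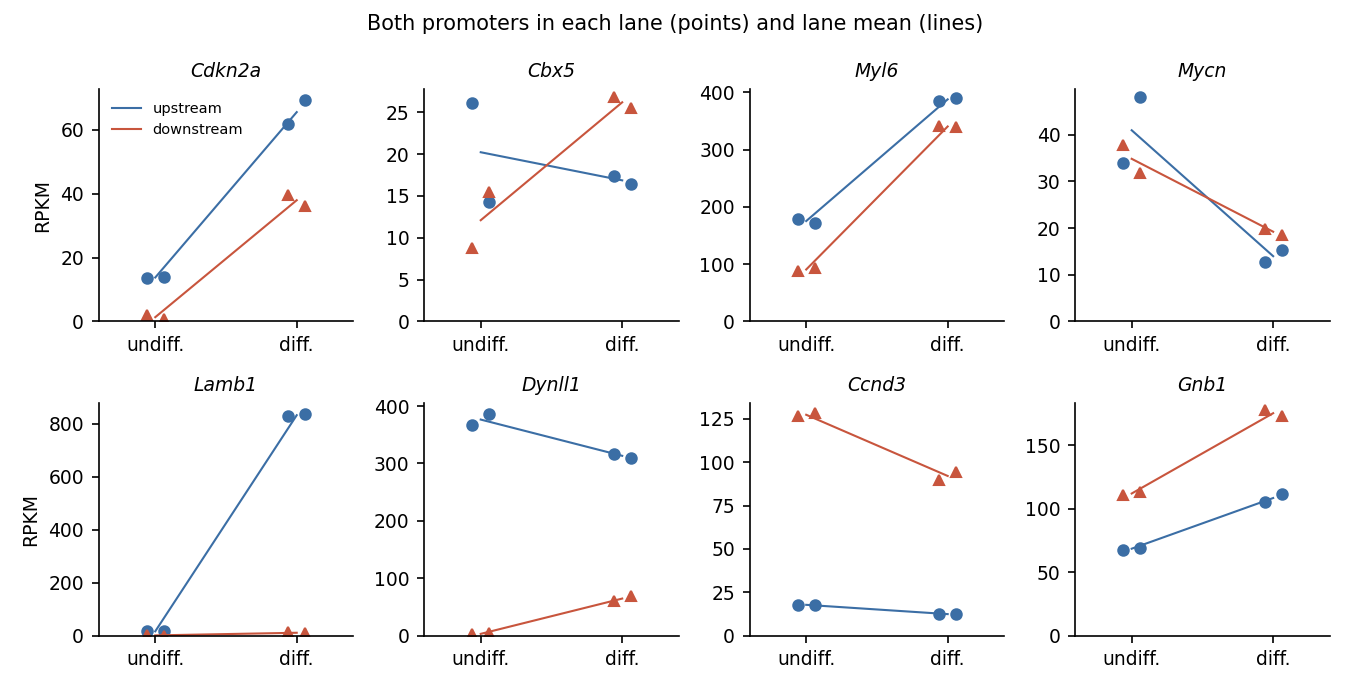
Level in RPKM (vertical) of the upstream promoter (circles) and the downstream promoter (triangles) in each of 2 lanes of the undifferentiated and the differentiated library, for 8 genes. Lines join the lane means. In Cdkn2a and Myl6 both promoters stand higher after differentiation, in Dynll1 only the downstream lanes do, in Lamb1 the downstream promoter stays at 12.1 RPKM or less, and in Gnb1 and Ccnd3 both promoters keep their order.

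The 3 members among 45 extraembryonic endoderm and matrix genes, Col4a1, Lamb1 and Fn1, had a mean upstream share of at least 90%, as 52.3% of all members did. Their upstream promoter was 2-fold or more higher in 2 of 3, beside 20.2% of all promoters. Col4a1 encodes a chain of basement membrane collagen, and its upstream promoter stood at 12.7 and 12.3 RPKM in undifferentiated and 1732 and 1776 RPKM in differentiated lanes. Its downstream promoter, 95815 bp away, read 0 in both undifferentiated lanes and 0.212 and 1.95 RPKM in the differentiated lanes. Lamb1, a laminin chain, stood at 16.7 and 16.1 and then 828 and 835 RPKM upstream, and at 1.58 and 0.432 and then 12.1 and 9.88 RPKM downstream. The downstream promoters, both retained-intron transcripts, thus carried little of the difference. Over the same libraries the summed level of the 4 extraembryonic endoderm markers was 2.76 to 2.90 RPKM in undifferentiated and 240 to 252 RPKM in differentiated lanes. That of the 4 fibroblast markers was 20.9 to 23.1 RPKM and 172 to 175 RPKM, and 2 of them were at least 2-fold higher, with none at 0. The part of other cell types in these levels was not tested.

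Pluripotency and germline genes had 4 members among 36, Mycn, Sall1 and Lefty1 included, and 2 of them had the larger share upstream. The upstream promoter was at least 2-fold lower in 3, beside 9.32% of all promoters. Mycn, the N-Myc transcription factor, stood at 33.9 and 48.0 RPKM upstream in undifferentiated and 12.6 and 15.3 RPKM in differentiated lanes, and at 37.9 and 31.8 and then 19.8 and 18.6 RPKM downstream. Its larger promoter in the undifferentiated library was upstream in lane 2 only. Sall1, a zinc finger factor of ES cells, stood at 43.7 and 42.0 and then 15.0 and 14.7 RPKM upstream and at 9.47 and 8.07 and then 4.31 and 5.73 RPKM downstream. Lefty1 was chosen after its values were seen. The upstream promoter of Lefty1, an inhibitor of Nodal signalling, stood at 21.2 and 20.4 and then 7.55 and 5.33 RPKM. All the promoters given here were lower in the differentiated lanes without overlap, in the same direction as the 4 ES cell markers, whose summed level was 1272 to 1285 RPKM and then 43.3 to 46.8 RPKM.

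Chromatin regulators had 7 members among 62, and the upstream promoter was larger in 6. Smarca4, the ATPase Brg1 of the BAF complex, stood at 54.7 and 60.2 and then 84.7 and 87.5 RPKM upstream, and at 3.03 and 0 and then 4.83 and 5.62 RPKM downstream. Yy1, a zinc finger factor, had upstream shares of 97.5% and 98.6%. Kdm6b, a histone H3 lysine demethylase, was the exception, and it was chosen with Chd1 after their values were seen. It stood at 4.18 and 4.51 and then 15.1 and 14.3 RPKM upstream, and at 11.7 and 12.5 and then 37.0 and 35.9 RPKM downstream, with log2 ratios of 1.56 and 1.52. Chd1, a chromatin remodeller of open chromatin in ES cells, had upstream lanes of 28.9 and 28.6 and then 24.3 and 24.7 RPKM and a downstream promoter at 2.30 and 2.56 and then 9.84 and 10.4 RPKM. Of the 5 downstream promoters of the list at 1 RPKM or more, 3 were at least 2-fold higher and 1 was lower, beside 20.2% and 9.32% of all promoters.

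Growth and signalling genes had 10 members among 64, with the larger share upstream in 7, 3 upstream promoters at least 2-fold higher, and no downstream promoter past 2-fold among the 5 at 1 RPKM or more. Over all promoters, 20.2% were higher and 9.32% lower. Grb2, an adaptor of receptor tyrosine kinases, had near-equal promoters with upstream shares of 46.6% and 48.2%, and Tcf7l1, a transcription factor of Wnt signalling, had 95.7% and 98.1%. Metabolism and housekeeping genes had 4 members among 55, all 4 with a mean upstream share of at least 90%. The upstream promoter was 2-fold or more lower in 1 and the downstream promoter in 2 of the 4, beside 9.32% of all promoters. Pgk1, phosphoglycerate kinase, stood at 718 and 719 and then 408 and 408 RPKM upstream and did not exceed 2.81 RPKM downstream. The downstream promoter of Got2, a mitochondrial aminotransferase, read 0 and 11.1 and then 2.95 and 0 RPKM, so its ratio is not interpretable. It is nevertheless 1 of the 2 downstream promoters counted as lower. Igf2r, the single imprinted member among 35 genes, stood at 15.3 and 15.5 and then 79.9 and 82.6 RPKM upstream, and its downstream promoter did not exceed 1.29 RPKM. None of the 30 retinoic acid response genes was a member.

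Genes in which the downstream promoter led by far are of a smaller class, and those named here were chosen after their values were seen. Hsp90aa1, the inducible heat shock protein chaperone, stood at 1420 and 1405 and then 524 and 528 RPKM downstream and at 11.6 RPKM or less upstream. Its listed starts lie 1091 bp apart on the minus strand, but its transcription starts, 111934604 and 111934160, lie under 1000 bp apart. H3f3b, which encodes the replacement histone H3.3, stood at 565 and 570 and then 546 and 526 RPKM downstream, and its upstream promoter did not exceed 0.118 RPKM. Clta, clathrin light chain A, stood at 154 and 160 and then 202 and 206 RPKM downstream, with upstream values of 0 except for 0.251 RPKM in 1 lane. Tnc, the matrix protein tenascin C, stood at 6.61 and 5.73 and then 95.5 and 104 RPKM downstream. In H3f3b, Clta and Hmgn2, a nucleosome-binding protein with 228 and 231 and then 274 and 277 RPKM downstream, RefSeq support was on the downstream side only.

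Other pairs kept both promoters in use, and these too were chosen after their values were seen. Ccnd3 (cyclin D3) stood at 17.8 and 17.7 and then 12.5 and 12.3 RPKM upstream and, 88416 bp away, at 126 and 128 and then 89.9 and 94.2 RPKM downstream. Its upstream share was 12.2% and 11.9%, with RefSeq support for both promoters. Csrp1, a LIM domain protein of actin filaments, was higher at both promoters, with log2 ratios of 2.81 and 2.62. Fbxo15, a gene typical of ES cells, was lower at both, with log2 ratios of -3.12 and -2.99 and an upstream share of 72.5% and 72.8%, although its differentiated downstream lanes of 2.77 and 6.47 RPKM lay more than 2-fold apart.

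In a few genes with lanes within 2-fold the balance itself was different, below the 30-point limit. All were chosen after their values were seen, and the limit used the same difference, so they serve only as examples. Of all 1366 members, 212 differed by at least 10 points. Before the limit, 12.3% of 1401 genes did so with lanes that did not overlap. The Cbx5 pair printed above stood at 26.1 and 14.3 and then 17.4 and 16.4 RPKM upstream, and at 8.77 and 15.4 and then 26.9 and 25.5 RPKM downstream. Its upstream lanes overlapped between the libraries, its downstream lanes did not, and the upstream share was 62.6% and 39.2%. By lane, the upstream share was 74.9% and 48.1% in undifferentiated and 39.2% and 39.1% in differentiated cells, so the size of the difference is uncertain. Idh1, the cytosolic isocitrate dehydrogenase, stood at 5.43 and 4.22 and then 2.93 and 2.96 RPKM upstream and at 23.7 and 24.6 and then 52.0 and 56.2 RPKM downstream. Ddx17, an RNA helicase, went the other way, with 31.3 and 32.8 and then 52.5 and 52.9 RPKM upstream and 39.3 and 39.1 and then 32.9 and 33.8 RPKM downstream. Net1, an exchange factor of RhoA, had upstream shares of 27.2% and 14.0%, and Hdlbp, the RNA-binding protein vigilin, had 22.7% and 10.6%. Slc3a2, the heavy chain of amino acid transporters, had 3.03% and 7.30%. In Idh1, Ddx17, Net1, Slc3a2 and Cbx5 both promoters list a RefSeq accession.

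The Spp1 pair, with few CpGs on either side, was almost wholly upstream. It stood at 267 and 251 and then 15.1 and 16.9 RPKM upstream, and at 1.80 and 1.09 and then 0.023 and 0.029 RPKM downstream. Both promoters were lower after differentiation, with log2 ratios of -3.94 and -1.25.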

How the data were processed

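The deposited tables give RPKM per transcript, promoter and gene for each lane, with the authors' mean of both lanes. Their headers name no unit. RPKM was taken from the values, since about 82% of the low values of 7878 single-exon genes fell on whole reads within 5%, while column sums (989572 and 836378 RPKM) differed. The build is mm9, per the submitters' processing notes. Which aligner, counting program and annotation were used is not given in the sources used here. First-exon lengths followed end minus start plus 1 for 57.8% and end minus start for 25.5% of 25152 first exons compared with GENCODE M21, so that positions are uncertain by 1 base. No value column was left unused (0).

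Promoters were ordered by strand, using the authors' means for shares and a pseudocount of 1 RPKM and a floor of 1 RPKM in either library for log2 ratios, with 2-fold as the limit for higher and lower. Values were computed with Python 3.11.15, pandas 2.3.3, NumPy 2.4.6 and SciPy 1.17.1, and figures drawn with matplotlib 3.10.9. The counting of pairs was tested on simulated data. Deposited Ensembl transcript names were matched to M21 (GRCm38) for biotype, length and start, and a start within 100 bp of a RefSeq start (GRCm38.p6) took its promoter sequence. No coordinate was converted between builds, and 1063 of the 1366 gene symbols were in the RefSeq promoter table.

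The members and the gene lists were chosen with earlier results of these data known. The rule for naming took, in each distance class, the 3 genes with the largest sum and a minor promoter of at least 10% in both libraries. It added the 6 genes at each extreme of the difference between the promoters' ratios, with lanes within 2-fold and a level of at least 5 RPKM, the 2 genes of each list with the largest sum (8 for known alternative promoters), the genes nearest the 30-point limit and the 3 longest distances. Only lanes replicate a library, so there is no test, and 1 library per group gives no SD between cultures. Alternatives were the lane, the minimum sum and distance, the limit on the share difference, lane agreement, informative symbols, the pseudocount, the floor, a minimum level of both promoters, the measure of distance and centring on the median of all promoters. A further 4 subsets by annotation or transcripts were chosen after seeing the data. Genes that the naming rule takes but that are not described are not reported here.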

Additional observations from a re-analysis of the deposited data

How the results depend on the processing

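No setting tried moved the larger share away from the upstream promoter over all members. With both promoters alike in RefSeq status, chosen after seeing the data, the percentage with the larger share upstream was 58.1% (70.7% at 1 to 5 kb, 50% at 5 to 20 kb, 57.1% at 20 to 100 kb, 50% at 100 kb or more), with median shares of 57.8% and 57.5% in the undifferentiated and differentiated libraries. With both protein coding, also chosen afterwards, it was 70.0% (73.5%, 74.1%, 59.7% and 60.0% by class), with medians of 78.8% and 75.6%. With 1 transcript on each side, likewise, it was 74.7% (70.4% and 74.5% in the first classes), with medians of 85.6% and 82.0%. With both promoters at 1 RPKM in both libraries it was 71.5% (70.7%, 72.8% and 71.3% in the first 3 classes), with medians of 70.0% and 70.3%. It was 77.9% at any distance (medians 89.6% and 88.9%), 78.8% at a sum of 1 RPKM (89.3% and 88.3%), 83.3% for informative symbols and 60.0% at 100 kb or more at a sum of 20 RPKM. The medians were 93.5% and 93.0% at that sum and 93.4% and 93.4% with lanes within 2-fold.

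The direction of the median log2 ratio is not settled. It was -0.054 upstream and 0.0059 downstream at a sum of 20 RPKM, and -0.067 and -0.037 after centring by the median of all promoters, 0.15. Upstream it was 0.16 at 5000 bp or more. It was 0.17 and 0.21 at a sum of 1 RPKM, 0.024 and 0.060 with both promoters at 1 RPKM, and downstream 0.057 without a floor and 0.073 with a pseudocount of 5. Genes 2-fold apart, 96 with downstream and 83 with upstream higher, numbered 37 and 36 with both promoters at 1 RPKM, 36 and 22 at a floor of 5 RPKM, 42 and 33 with lanes within 2-fold, 36 and 43 with a pseudocount of 5, and 45 and 31 at a sum of 20 RPKM. Without a floor, 117 had the downstream and 138 the upstream ratio higher, so the order turns there and with a pseudocount of 5. The percentages of promoters 2-fold higher or lower moved by over 1.5 times with a pseudocount of 5 (upstream 8.95% and 3.72%, downstream 5.43% and 3.03%), at a sum of 20 RPKM (upstream higher 8.43%) and with both promoters at 1 RPKM (downstream higher 10.5%). Other shares, medians and counts of genes stayed within their 95% intervals (binomial, over genes) or within 1.5 times. Such intervals treat genes as independent, and the settings reuse the same genes and libraries, so they serve only as a mark for the size of a shift. The cause of these shifts was not tested. No paired analysis was possible because each group has only 1 library.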

Other observations

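Among genes in which both promoters were far higher after differentiation, Atp6v0a1 and Plod3 had lanes that lay within 2-fold wherever levels were above 1.38 RPKM. Both were chosen after their values were seen. Atp6v0a1, a subunit of the vacuolar proton pump, stood at 3.05 and 4.18 RPKM upstream in undifferentiated and 35.6 and 30.4 RPKM in differentiated lanes, and at 2.57 and 2.35 and then 36.4 and 35.8 RPKM downstream. The pump acidifies lysosomes, and no other subunit was examined here. Plod3, a lysyl hydroxylase of collagen, stood at 9.48 and 9.83 and then 72.6 and 71.4 RPKM upstream, and at 0.197 and 1.38 and then 17.1 and 15.8 RPKM downstream. At neither promoter of these genes did the lanes of the libraries overlap.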
